A study of Homo sapiens with 12 samples.

Results

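Interferon-stimulated and double-stranded RNA (dsRNA)-sensing genes were followed in HEK293T cells treated with STM2457, which inhibits METTL3, the enzyme that deposits m6A on mRNA. The set held 30 genes, fixed by symbol and found among the 60662 Ensembl genes of the RNA count files, and each symbol matched 1 identifier. All libraries came from HEK293T, an established human embryonic kidney line, with the genotype given as WT. STM2457 cells received 20 µM of the compound in 0.2% DMSO and DMSO cells received 0.2% DMSO alone, both for 6 h. In both arms the medium was enriched with another 10% serum 1 h before harvest, and cycloheximide at 100 µg/ml was present for the last 3 min. RNA-seq was made from 4 libraries per arm, and ribosome profiling, which sequences the 26 to 34 nt fragments that ribosomes protect, from 2 libraries per arm. Replicates are not described as independent cultures, and the p-values therefore rest on library-to-library spread that may be only technical.

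Cells recognise foreign dsRNA through the helicases IFIH1 (MDA5) and RIGI, which signal through the mitochondrial adaptor MAVS and the kinase TBK1 to the transcription factor IRF3 and to interferon genes. Secreted interferon then acts through JAK kinases and a complex with STAT2 and IRF9 that binds the interferon-stimulated response element (ISRE) of many target genes. The RNA editor ADAR converts adenosines in the cell's own dsRNA to inosine, and in mouse blood progenitors loss of METTL3 has been linked to dsRNA accumulation and an interferon response.

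Total counts of the RNA-seq libraries lay between 43291730 and 51645739. The series table of normalised signals covered 12224 genes, 24 of the 30 among them, and its footprint columns corresponded to 4039314 and 3898620 reads in the STM2457 libraries and 4711513 and 3198063 in the DMSO libraries. The HEK293T markers PAX2, NEFL, NEFM, LIN28B and LHX1 were all above 1 CPM (counts scaled to the library total), with a sum of 586 to 637 CPM in STM2457 libraries and 521 to 566 CPM in DMSO libraries. Of 6 blood and immune markers only CORO1A exceeded 1 CPM, the sum ran from 4.77 to 5.02 CPM with STM2457 and from 5.14 to 5.98 CPM with DMSO, and PTPRC had 2 counts over all STM2457 libraries and 1 over all DMSO libraries. Of 6 fibroblast and 6 epithelial markers 2 each exceeded 1 CPM, and KRT19 and KRT5 were at 0 counts. Spike-in sequences took 0.415 to 0.466% of counts with STM2457 and 0.389 to 0.408% with DMSO, which do not overlap. The part of these differences in the results was not tested, and fewer cells and less RNA per cell cannot be told apart in bulk libraries.

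The stretches below show the core letters of the response element in 6 promoters that hold them. ISG15 stands as a comparison, and the other genes shown passed the RNA test described further on. ADAR, TRIM25, MAVS and TBK1 passed that test too, but their promoters lacked these letters, and no promoter was matched for USP18. RefSeq promoters (GRCh38.p14) of 250 bases before to 50 bases after a gene start were matched for 24 of the 30 genes and searched for the core letters of the ISRE (GAAA, any 2 bases, then GAAA) on both strands, overlaps counted. Capitals mark these letters or their reverse complement, and each stretch reads 5′ to 3′ on the strand of its gene.
IFIT5 (chr10:89414516-89414581, plus strand): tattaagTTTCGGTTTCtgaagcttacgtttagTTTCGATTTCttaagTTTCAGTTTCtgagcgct
IFIT1 (chr10:89392497-89392538, plus strand): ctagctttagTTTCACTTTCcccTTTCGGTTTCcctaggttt
IFI6 (chr1:27672267-27672316, minus strand): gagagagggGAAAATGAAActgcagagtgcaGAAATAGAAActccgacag
IFITM1 (chr11:313992-314051, plus strand): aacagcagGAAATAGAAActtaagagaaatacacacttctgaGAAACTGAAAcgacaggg
SAMD9 (chr7:93118090-93118129, minus strand): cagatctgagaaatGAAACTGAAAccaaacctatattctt
ISG15 (chr1:1013375-1013410, plus strand): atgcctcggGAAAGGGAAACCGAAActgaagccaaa

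The letters occurred 3 times in the IFIT5 stretch, 2 times in each of IFIT1, IFI6, IFITM1 and ISG15 (where the 2 matches overlap), and once in SAMD9. The IFI6 promoter held another match outside the stretch shown. In all, 15 of the 24 genes held them in at least 1 promoter, against 3.57% of all 35116 promoters. Here and for the next motif, genes with any matching promoter are set against single promoters. The set was also picked for roles in interferon and RNA sensing, so these shares are not a test of enrichment. A narrow form of the gamma-activated site (TTCC, any base, then GGAA) was found for 2 of the 24 genes, IFI27 and BST2, against 1.15% of all promoters. Looser forms of this site, and other spacings or looser forms of the ISRE, were not searched. Genes without a match therefore cannot be said to lack either element. A match is a description of the sequence and not a bound site, and the motifs and the stretches shown were chosen after the RNA values had been seen.

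Of the 30 genes, 23 (76.7%) were expressed, defined as a mean of at least 1 CPM over the 8 RNA libraries, against 23.1% of all 60662 genes and 78.8% of the 17807 genes with enough counts to be tested. The 7 below this level were OAS1, IFI44, MX1, BST2, IFIT2, IRF9 and ISG20, which include classical interferon-induced antiviral effectors. Just inside it were DHX58 (1.22 CPM) and IFIT3 (1.24 CPM), and just outside it ISG20 (0.843 CPM) and IRF9 (0.773 CPM).

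OAS1, a dsRNA-activated oligoadenylate synthase, had 0, 1, 0 and 0 counts in the STM2457 libraries and 2, 0, 0 and 0 in the DMSO libraries. IFI44 had 1, 0, 1 and 1 counts with STM2457 and 4, 2, 1 and 0 with DMSO. MX1, a GTPase that restricts influenza and other viruses, had 16, 6, 10 and 2 counts with STM2457 and 8, 9, 11 and 5 with DMSO. These 3 genes were near the limit of detection in both arms and were not tested. BST2 (tetherin, which holds budding virions at the cell surface) had 8 to 13 counts with STM2457 and 10 to 21 with DMSO. IFIT2 had 27 to 47 counts with STM2457 and 19 to 32 with DMSO, ISG20 (a 3′ exonuclease) 41 to 45 with STM2457 and 33 to 44 with DMSO, and IRF9 26 to 44 with STM2457 and 29 to 52 with DMSO. The arms overlapped for all 4 of these genes, and none passed the test. The level of IRF9 depends on how reads were counted, because its reads in the series table came to 419% of its deposited counts with STM2457 and 416% with DMSO.

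The interferon genes themselves were close to absent. Of 14 type I, II and III interferon genes examined, none reached 1 CPM and 8 had 0 counts in all 8 libraries. IFNB1, the interferon gene first induced by MAVS signalling in many cell types, had 2, 3, 0 and 2 counts in STM2457 libraries and 0, 1, 3 and 0 in DMSO libraries. Neither arm rose above a few reads in any library, so no fold is given and no difference was detectable at this depth.

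**Figure D1:**
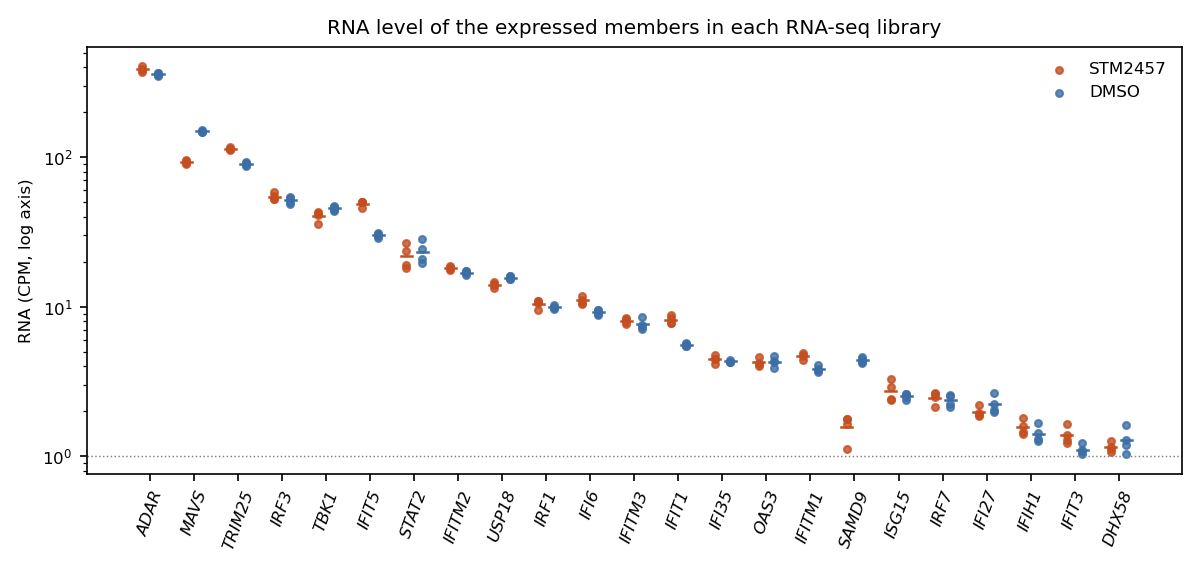
RNA level in CPM (log axis, not divided by gene length) of the 23 expressed genes in each RNA-seq library, with STM2457 left of DMSO, a point per library and a bar at the mean of 4. MAVS and SAMD9 lie lower and IFIT5 and IFIT1 higher with STM2457 without overlap, and the dotted line marks 1 CPM.

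RNA changes were mixed in direction. Among the 27 genes tested, 6 rose with STM2457 (ADAR, TRIM25, IFIT1, IFIT5, IFITM1 and IFI6), 4 fell (MAVS, SAMD9, TBK1 and USP18), and 17 did not pass the test (edgeR quasi-likelihood test, Benjamini-Hochberg adjusted p under 0.05 over all genes). Over all 17807 genes tested, 26.2% were called higher, 21.6% lower and 47.8% in either direction, so 10 of 27 is no more than the background share. The arms did not overlap in CPM for 11 of the 27, against 44.7% of all tested genes. The median log2 fold change of the 27 was 0.08, against 0.0025 over all genes. With scaling by spike-in counts, under which the median of all genes moved to -0.19, 3 were called higher (TRIM25, IFIT1, IFIT5) and 7 lower (MAVS, SAMD9, TBK1, USP18, STAT2, BST2, IFI27), against 12.1% higher and 47.1% lower over all genes. The calls of STAT2 and BST2 under this scaling were lost without STM2457 replicate 4.

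**Figure D2:**
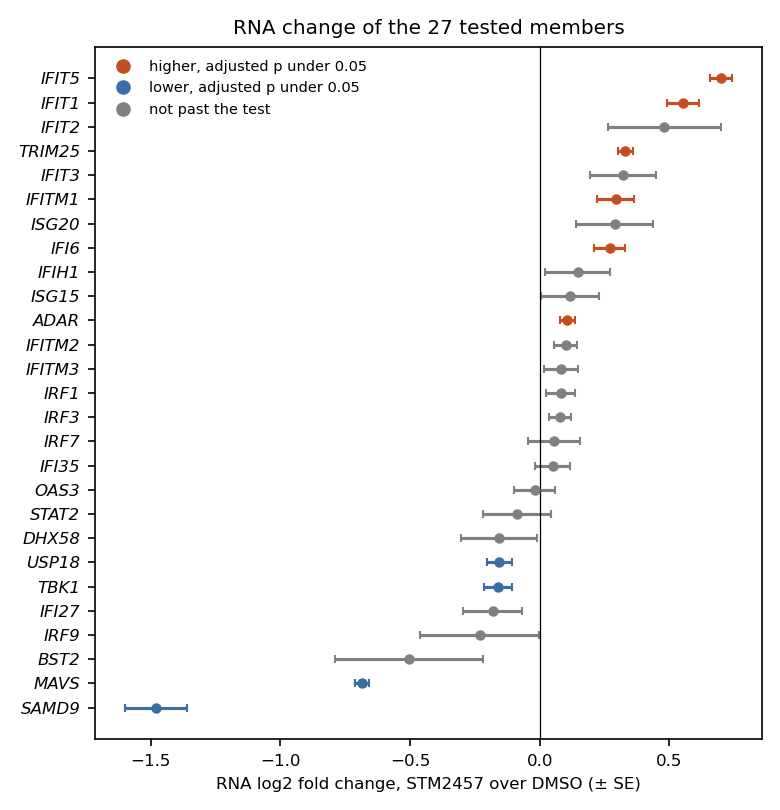
RNA log2 fold change, STM2457 over DMSO, of the 27 tested genes, with bars of ± 1 standard error (n = 4 per arm). IFIT5 (0.70) is the highest and SAMD9 (-1.48) the lowest, orange marks the 6 called higher and blue the 4 called lower.

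The sensing and editing genes moved little. ADAR (ENSG00000160710.17, chromosome 1) was at 406, 381, 391 and 373 CPM in the STM2457 libraries and at 367, 357, 351 and 364 CPM in the DMSO libraries. Its arms did not overlap, but the lowest STM2457 library lay close to the highest DMSO library. The log2 fold change was 0.11 (SE 0.03, edgeR adjusted p = 0.00727), and with spike-in scaling it was -0.09 with an edgeR adjusted p of 0.174. IFIH1 (MDA5) ranged from 1.41 to 1.81 CPM with STM2457 and from 1.27 to 1.66 CPM with DMSO, and its log2 fold change was 0.15 (SE 0.13). DHX58 (LGP2), a helicase that modulates MDA5 and RIG-I, ranged from 1.07 to 1.27 CPM with STM2457 and from 1.04 to 1.62 CPM with DMSO. Both helicases overlapped between arms and did not pass the test.

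The adaptor and the kinase downstream of the helicases, and the ubiquitin ligase of RIG-I, each passed the test, in different directions. MAVS (ENSG00000088888.18, chromosome 20) had 94.6, 90.4, 96.3 and 90.9 CPM in STM2457 libraries against 148, 150, 147 and 153 CPM in DMSO libraries. Every STM2457 library lay far below every DMSO library, and MAVS fell 1.61-fold (log2 fold change -0.69, SE 0.03, edgeR adjusted p = 9.01e-10). TRIM25 (ENSG00000121060.18, chromosome 17), a ligase that ubiquitinates RIG-I, had 118, 114, 113 and 111 CPM with STM2457 and 92.1, 93.3, 87.8 and 89.3 CPM with DMSO. It rose 1.26-fold without overlap (log2 fold change 0.33, SE 0.03, edgeR adjusted p = 1.05e-06). With spike-in scaling the log2 fold change was 0.13 and still passed (edgeR adjusted p = 0.0329).

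TBK1 (ENSG00000183735.10, chromosome 12), which phosphorylates IRF3, had 42.0, 43.3, 35.7 and 41.3 CPM with STM2457 and 46.9, 46.6, 44.3 and 44.0 CPM with DMSO. The gap between the arms was narrow, and 1 STM2457 library lay below the other 3. TBK1 fell by 0.16 on the log2 scale (SE 0.05, edgeR adjusted p = 0.0243). The call was lost without DMSO replicate 1 (edgeR adjusted p = 0.0618) or without DMSO replicate 2 (edgeR adjusted p = 0.0563).

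None of the 5 transcription factors passed the RNA test. IRF3 (ENSG00000126456.16, chromosome 19), the factor that MAVS and TBK1 activate, had 52.6, 52.4, 58.2 and 54.7 CPM with STM2457 and 50.4, 48.4, 53.5 and 53.9 CPM with DMSO. The arms overlapped, and the log2 fold change was 0.08 (SE 0.04, edgeR adjusted p = 0.168). With the replicate number as a block the same value passed (log2 fold change 0.08, edgeR adjusted p = 0.0414), and with spike-in scaling it was -0.12.

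IRF1, an interferon-gamma target, ranged from 9.56 to 10.9 CPM with STM2457 and from 9.66 to 10.2 CPM with DMSO, and IRF7, which amplifies interferon-alpha production, from 2.13 to 2.64 CPM with STM2457 and from 2.14 to 2.56 CPM with DMSO. STAT2 had 19, 18.2, 26.9 and 23.7 CPM with STM2457 and 20.7, 19.6, 24.3 and 28.6 CPM with DMSO. Replicates 3 and 4 were higher than replicates 1 and 2 in both arms, a spread wider than the difference between arms.

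The IFIT proteins, which bind RNA and block translation of foreign transcripts, had positive values throughout: 2 of the 4 (IFIT1 and IFIT5) rose, and the other 2 missed the threshold. IFIT5 (ENSG00000152778.9, chromosome 10) had 50.1, 50.2, 49.9 and 45.6 CPM with STM2457 and 31.3, 30.8, 29.6 and 28.9 CPM with DMSO. All 4 STM2457 libraries lay above all DMSO libraries, and IFIT5 rose 1.62-fold (log2 fold change 0.70, SE 0.04, edgeR adjusted p = 2.45e-08). IFIT1 (ENSG00000185745.10, chromosome 10) had 8.40, 7.76, 8.74 and 7.74 CPM with STM2457 and 5.45, 5.45, 5.67 and 5.65 CPM with DMSO. It rose 1.47-fold, again without overlap (log2 fold change 0.55, SE 0.06, edgeR adjusted p = 9.48e-06).

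IFIT3 ranged from 1.22 to 1.63 CPM with STM2457 and from 1.03 to 1.22 CPM with DMSO, and its log2 fold change of 0.32 (SE 0.13) had an edgeR adjusted p of 0.0528. IFIT2 had a log2 fold change of 0.48 (SE 0.22, edgeR adjusted p = 0.0878). Leaving out STM2457 replicate 3 or DMSO replicate 2 brought IFIT3 past the threshold (edgeR adjusted p = 0.0391 and 0.0492), and leaving out STM2457 replicate 1 did so for IFIT2 (0.61, edgeR adjusted p = 0.0401). All 4 IFIT values also stayed positive with spike-in scaling, where IFIT1 (0.36) and IFIT5 (0.50) passed.

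Of the IFITM proteins, which block fusion of enveloped viruses with cell membranes, IFITM1 rose and the others did not pass the test. IFITM1 (ENSG00000185885.16, chromosome 11) had 4.93, 4.37, 4.75 and 4.68 CPM with STM2457 and 4.06, 3.81, 3.64 and 3.77 CPM with DMSO. The arms did not overlap (log2 fold change 0.29, SE 0.07, edgeR adjusted p = 0.00398), but with spike-in scaling the value of 0.10 did not pass (edgeR adjusted p = 0.414). IFITM2 ranged from 17.5 to 18.6 CPM with STM2457 and from 16.2 to 17.3 CPM with DMSO, without overlap but with an edgeR adjusted p of 0.0781. IFITM3 ranged from 7.69 to 8.38 CPM with STM2457 and from 7.11 to 8.48 CPM with DMSO. The 3 genes are close copies of each other, so reads may be split between them and their values are uncertain.

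SAMD9 (ENSG00000205413.8, chromosome 7), an interferon-induced protein that restricts poxviruses, had 1.64, 1.11, 1.76 and 1.78 CPM with STM2457 and 4.57, 4.47, 4.21 and 4.27 CPM with DMSO. Every STM2457 library was below 2 CPM and every DMSO library above 4 CPM. SAMD9 fell 2.79-fold, the largest RNA change of the 27 (log2 fold change -1.48, SE 0.12, edgeR adjusted p = 4.61e-07). OAS3, another oligoadenylate synthase, ranged from 3.99 to 4.6 CPM with STM2457 and from 3.87 to 4.69 CPM with DMSO.

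USP18 (ENSG00000184979.9, chromosome 22), the protease that removes ISG15 from proteins and dampens receptor signalling, had 14.7, 13.2, 14 and 14.3 CPM with STM2457 and 16.1, 15.2, 15.2 and 16.0 CPM with DMSO. The arms did not overlap, and USP18 fell by 0.16 on the log2 scale (SE 0.05, edgeR adjusted p = 0.0172). That call was lost without STM2457 replicate 2 (edgeR adjusted p = 0.0567) or without DMSO replicate 1 (edgeR adjusted p = 0.0515). ISG15, the ubiquitin-like modifier itself, ranged from 2.38 to 3.27 CPM with STM2457 and from 2.36 to 2.62 CPM with DMSO and did not pass.

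IFI6 (ENSG00000126709.15, chromosome 1), an interferon-induced protein of the endoplasmic reticulum and mitochondria, had 11.9, 11.2, 10.5 and 10.7 CPM with STM2457 and 9.47, 8.76, 8.89 and 9.52 CPM with DMSO. It rose without overlap (log2 fold change 0.27, SE 0.06, edgeR adjusted p = 0.00209), and with spike-in scaling the value of 0.07 did not pass (edgeR adjusted p = 0.464). IFI27 ranged from 1.86 to 2.21 CPM with STM2457 and from 1.98 to 2.66 CPM with DMSO, and IFI35 from 4.12 to 4.72 CPM with STM2457 and from 4.23 to 4.43 CPM with DMSO. Neither passed the test.

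The genes with ISRE letters in a promoter were not set apart by a uniform direction. Of the 13 such genes tested, 4 rose (IFIT1, IFIT5, IFI6 and IFITM1), 1 fell (SAMD9) and 8 did not pass (median log2 fold change 0.15). Of the 8 tested genes whose matched promoters lacked the letters, 2 rose (ADAR and TRIM25), 2 fell (MAVS and TBK1) and 4 did not pass, with a median of -0.02. The difference between these 2 groups was not tested. Over all 17807 genes tested, 26.2% were called higher and 21.6% lower, with a median of 0.0025. With spike-in scaling IFI6, IFITM1 and ADAR were no longer called, and IFI27, BST2 and STAT2 were called lower.

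Footprints were read from the series table, whose normalised signal was a whole multiple of the worth of 1 read in each library. Of the 30 genes, 19 averaged 10 or more recovered reads over the 4 footprint libraries. IRF7, IRF9, DHX58, IFIT3 and IFI27 were in the table below this depth. Of the 19, IFIT5 was higher with STM2457, MAVS was lower, and 16 did not pass (limma on log2(signal + 1), Benjamini-Hochberg adjusted p under 0.05). SAMD9 also fell past the threshold, but it met the depth minimum only through its DMSO libraries and is given as values. Over all 10906 genes tested, 9.59% were called higher and 6.13% lower. The median footprint log2 fold change of the 19 was -0.09, against -0.02 over all genes. The fit let the spread depend on signal level, a choice made after a fit without it had been seen. Without it none of the 19 passed, although 5 had an unadjusted p under 0.05, and the smallest adjusted p was 0.0635.

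IFIT5 footprints had a normalised signal of 1284 and 1203 with STM2457 and of 718 and 781 with DMSO, from 338 and 308 reads with STM2457 and 223 and 162 with DMSO. Both STM2457 libraries exceeded both DMSO libraries (footprint log2 fold change 0.73, SE 0.14, limma adjusted p = 5.11e-05, and 0.0648 without the trend). IFIT1 had a signal of 228 and 226 with STM2457 and of 129 and 159 with DMSO, also without overlap, but its footprint log2 fold change of 0.66 (SE 0.27) did not pass (limma adjusted p = 0.0924).

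MAVS footprints had a signal of 752 and 656 with STM2457 and of 1046 and 1041 with DMSO. MAVS was lower in both libraries (footprint log2 fold change -0.57, SE 0.14, limma adjusted p = 0.00267, and 0.107 without the trend). USP18 had 216 and 269 with STM2457 and 325 and 395 with DMSO, without overlap, but its value of -0.57 (SE 0.22) had a limma adjusted p of 0.0724.

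SAMD9 rested on few reads. Its footprint libraries held 4 and 3 reads with STM2457 and 15 and 22 reads with DMSO. Its footprint log2 fold change was -2.34, and without DMSO replicate 2 it was -1.78. No p-value is given with these values, because the gene met the depth minimum only through the arm where it was high.

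OAS3, whose RNA log2 fold change was -0.02 and did not pass (edgeR adjusted p = 0.865), had 26 and 32 footprint reads with STM2457 and 10 and 18 with DMSO, that is a signal of 98.7 and 125 with STM2457 against 32.2 and 86.7 with DMSO. The STM2457 libraries were higher in both, while the DMSO libraries differed widely from each other. Its footprint log2 fold change of 1.05 (SE 0.43) did not pass (limma adjusted p = 0.0874), but did without DMSO replicate 2 (1.76, limma adjusted p = 0.0141). Without DMSO replicate 1 the value was 0.35 (limma adjusted p = 0.724).

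**Figure D3:**
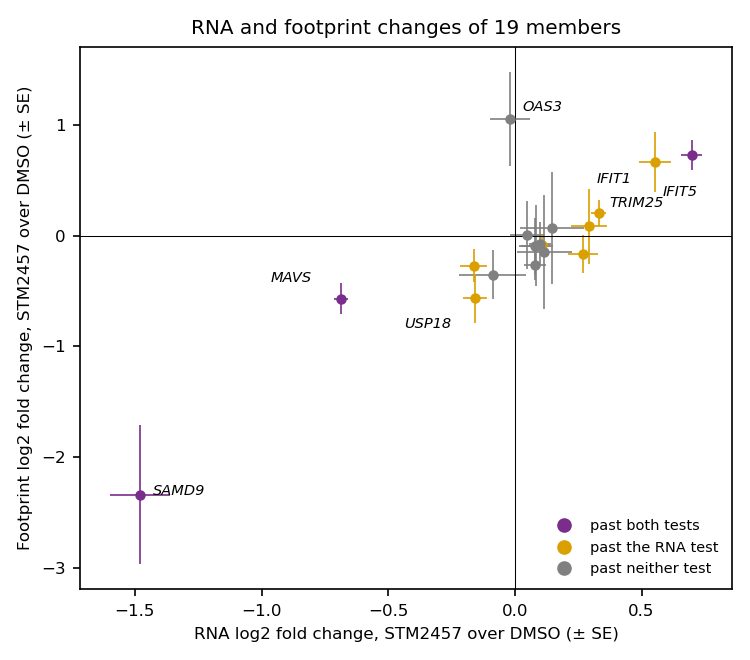
RNA log2 fold change (horizontal, n = 4 per arm) and footprint log2 fold change (vertical, n = 2 per arm), STM2457 over DMSO, with ± 1 standard error, for the 19 genes with both. IFIT5 lies at the upper right and MAVS and SAMD9 at the lower left, while OAS3 is near 0 in RNA and at 1.05 in footprints, and SAMD9 met the depth minimum only through its DMSO libraries.

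RNA and footprint changes had the same sign in 11 of these 19 genes, and in 8 of the 10 that passed the RNA test. The exceptions among the 10 were ADAR and IFI6. The 8 include SAMD9, which met the depth minimum only through its DMSO libraries. The same count over all genes was not made, so these shares have no background to be read against. ADAR had footprint signals of 4766 and 4908 with STM2457 and of 5175 and 5114 with DMSO (footprint log2 fold change -0.09, SE 0.09, limma adjusted p = 0.58). IFI6 had signals of 498 and 441 with STM2457 and 541 and 511 with DMSO (footprint log2 fold change -0.17, SE 0.17, limma adjusted p = 0.599). TRIM25 had 1519 and 1753 with STM2457 and 1423 and 1407 with DMSO (footprint log2 fold change 0.21, SE 0.12, limma adjusted p = 0.268). IRF3 and TBK1 footprints were lower with STM2457 in each library without passing (footprint log2 fold change -0.27 for each). With 1 library left out these ran from -0.37 to -0.16 for IRF3 and from -0.39 to -0.16 for TBK1.

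Translational efficiency, the change of footprints beyond the change of RNA, passed the test for 0 of the 19 genes (limma interaction of assay and treatment with a weight per assay). Over all 10906 genes, 0.229% were called higher and 0.807% lower. One of the 19, OAS3, had an unadjusted p under 0.05, and 5 did with the edgeR interaction on deposited RNA counts, which also called 0 after adjustment. OAS3 had an efficiency log2 change of 1.35 (SE 0.48, limma adjusted p = 0.3), which ran from 0.65 (without DMSO replicate 1) to 2.05 (without DMSO replicate 2) with 1 footprint library left out. IFIT5 had 0.11 (SE 0.15). SAMD9 had -0.76 (SE 0.58), from -1.32 without DMSO replicate 1 to -0.20 without DMSO replicate 2. In the authors' deposited table, which gives efficiency without a test, the median efficiency of the 24 genes was 0.993 with STM2457 and 1.11 with DMSO, against 1.00 with STM2457 and 1.01 with DMSO over all 12224 genes.

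The efficiency of MAVS depended on which RNA values were used. The efficiency log2 change was -0.29 (SE 0.16) with the RNA columns of the series table and 0.16 with the deposited RNA counts, and neither passed. MAVS RNA in the table had signals of 673, 665, 692 and 614 with STM2457 and of 793, 826, 771 and 825 with DMSO. Every STM2457 library was again below every DMSO library, but the log2 fold change was -0.28 (limma adjusted p = 9.38e-05), against -0.69 in the deposited counts. The MAVS reads of the table came to 28.3 to 31.2% of its deposited counts with STM2457 and to 21.1 to 22.2% with DMSO. Over all genes of the table the share was 68.1 to 68.5% with STM2457 and 68.2 to 68.8% with DMSO. For IFIT5 it was 65.1 to 68.3% with STM2457 and 65.2 to 68.4% with DMSO. Among the 24 genes in the table this share did not overlap between the arms for 5. The same count over all genes of the table was not made, so 5 of 24 cannot be called many or few. Beside MAVS these were OAS3 (33.5 to 38.7% with STM2457 and 40.4 to 44.7% with DMSO), ISG15 (82.0 to 88.3% with STM2457 and 73.4 to 79.2% with DMSO), IFI27 (32.9 to 41.6% with STM2457 and 23.4 to 31.6% with DMSO) and IFITM3 (90.7 to 92.7% with STM2457 and 93.0 to 93.9% with DMSO). The part of these differences in the efficiency values, that of OAS3 included, was not tested. Which parts of a gene each count covers is not given in the sources used here.

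**Figure D4:**
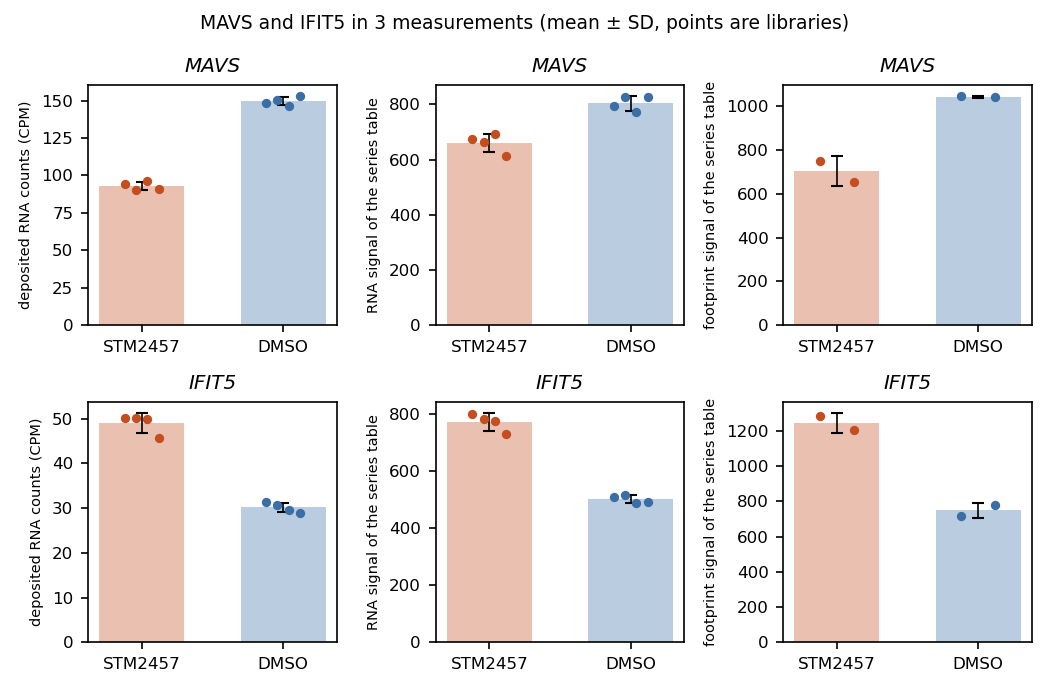
MAVS (upper row) and IFIT5 (lower row) in deposited RNA counts (CPM), table RNA signal and footprint signal, with STM2457 left of DMSO, bars at the mean, ± SD and a point per library (n = 4 for RNA, 2 for footprints). MAVS is lower and IFIT5 higher with STM2457 in all 3 measurements, and the drop of MAVS is larger in CPM than in the table RNA signal.

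The wider pathway was covered by 134 further genes in 7 groups, of which 97 were tested in RNA. Of these, 34 rose and 16 fell (median log2 fold change 0.04), against 26.2% higher and 21.6% lower over all genes. With spike-in scaling 18 were called higher and 46 lower of the 97, against 12.1% higher and 47.1% lower over all genes.

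Signalling components between the RNA sensors and NF-kB had 9 genes higher and 2 lower of 21 (median 0.08), and with spike-in scaling 6 higher and 7 lower (median -0.11). TICAM1 (TRIF), the adaptor of TLR3, was at 7.93 ± 0.585 CPM with STM2457 and 3.01 ± 0.153 CPM with DMSO (SD, n = 4 each), and TRAF6, a ubiquitin ligase that relays MAVS and Toll-like receptor signals, at 61.2 ± 1.95 CPM with STM2457 and 29.9 ± 1.66 CPM with DMSO. Their log2 fold changes were 1.40 (SE 0.08) and 1.03 (SE 0.04). RIPK1, a kinase of these complexes, rose by 0.54 (SE 0.04) and the NF-kB subunit RELA by 0.41 (SE 0.03). All 4 were also called higher with spike-in scaling, at 1.2, 0.84, 0.34 and 0.21. In footprints TRAF6 (1.35), RIPK1 (0.70) and RELA (0.50) passed, and TICAM1 (0.77) did not (limma adjusted p = 0.27).

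Negative regulators had 6 genes higher and 3 lower of 13 (median 0.14), and with spike-in scaling 3 higher and 6 lower (median -0.06). IRF2BP2, a corepressor that partners IRF2, was at 278 ± 2.58 CPM with STM2457 and 119 ± 4.38 CPM with DMSO (SD, n = 4 each), a log2 fold change of 1.22 (SE 0.03). IRF2BP1 rose by 0.85 (SE 0.04) and IRF2, which competes with IRF1, by 0.58 (SE 0.08). The corepressor TRIM28 fell by 0.15 on the log2 scale (SE 0.03). The 3 increases also passed with spike-in scaling.

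Interferon receptors and JAK-STAT components had 4 genes higher and 3 lower of 11 (median -0.08), and with spike-in scaling 1 higher and 7 lower (median -0.27). IFNGR1, a chain of the interferon-gamma receptor, was at 87.9 ± 3.27 CPM with STM2457 and 58.6 ± 0.998 CPM with DMSO (SD, n = 4 each), a log2 fold change of 0.58 (SE 0.03), and its footprints passed too (0.71). The chains of the type I receptor differed in sign, with IFNAR2 at 0.31 (SE 0.06) and IFNAR1 at -0.15 (SE 0.04), both past the test. IFNAR2 did not pass with spike-in scaling (edgeR adjusted p = 0.248). STAT3 fell by 0.19 on the log2 scale. JAK1 (-0.0025) and TYK2 (-0.15) did not pass, though both were called lower with spike-in scaling (-0.20 and -0.34).

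Other nucleic acid sensors had 2 genes higher and 3 lower of 9 (median -0.04), and with spike-in scaling 1 higher and 6 lower (median -0.23). TLR3, the endosomal dsRNA receptor, was at 1.49 ± 0.139 CPM with STM2457 and 0.803 ± 0.0975 CPM with DMSO (SD, n = 4 each), a log2 fold change of 0.90 (SE 0.13). LRRFIP1 rose by 0.24, whereas the dsRNA-binding protein PRKRA fell by 0.17 and the dsRNA-activated kinase EIF2AK2 (PKR) by 0.13 on the log2 scale. With spike-in scaling LRRFIP1 no longer passed (0.04). RIGI, at 4.93 ± 0.320 CPM with STM2457 and 5.06 ± 0.205 CPM with DMSO, did not pass (log2 fold change -0.04), but was called lower with spike-in scaling (-0.23).

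Other interferon-stimulated genes had 9 higher and 4 lower of 30 (median 0.02), and with spike-in scaling 7 higher and 14 lower (median -0.17). TRIM21, an antibody receptor and ubiquitin ligase, was at 15.2 ± 0.636 CPM with STM2457 and 7.75 ± 0.601 CPM with DMSO (SD, n = 4 each), a log2 fold change of 0.97 (SE 0.06), and its footprints rose by 1.26 (limma adjusted p = 3.82e-05). DTX3L rose by 0.63, APOL2 by 0.45 and ZNFX1, an RNA helicase that senses dsRNA, by 0.39. Antigen presentation had 4 higher and 1 lower of 13 (median 0.02), and with spike-in scaling 0 higher and 6 lower (median -0.17). Values without that scaling were HLA-B at 0.15, HLA-C at 0.10 and ERAP1 at -0.17. With spike-in scaling HLA-B (-0.05) and HLA-C (-0.10) had the opposite sign and did not pass. HLA-B and HLA-C are close copies of each other, so their split of reads is uncertain.

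**Figure D5:**
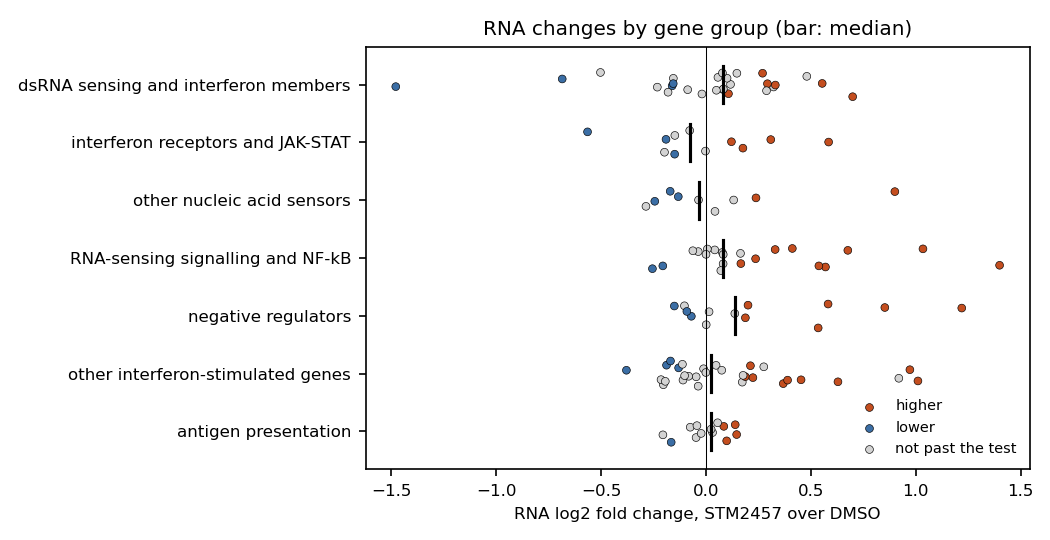
RNA log2 fold change, STM2457 over DMSO, of each tested gene by group, with a vertical bar at the group median. Orange points passed the test as higher, blue as lower and grey did not pass, and group medians lie between -0.08 (receptors and JAK-STAT) and 0.14 (negative regulators).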

How the data were processed

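Per the labels' protocols, RNA-seq libraries were poly(A)-selected and strand-specific. The submitters' processing notes name STAR 2.7.3a and, from Subread 2.0.3, featureCounts, beside SAMtools 1.10, UMI-tools 1.1.2, FastQC 0.11.9, bedtools 2.29.2 and DESeq2, and the build GRCh38.p12, without saying what each did. The authors deposited raw read counts per gene for the 8 RNA-seq libraries, and a table with a normalised signal per library, translational efficiencies that the authors formed as a ratio of footprint to RNA signal, and their log2 changes. In each of its 12 library columns 100% of values lay within 0.1 of a whole read once divided by the worth of 1 read.

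The deposited counts entered a quasi-likelihood test of edgeR 4.0.16 (R 4.3.3, TMM, filterByExpr, spike-ins left out), and CPM used TMM factors. Footprints and efficiency were tested with limma 3.58.1 on log2(signal + 1), so fold changes of low genes are understated. The trend of spread with level was adopted after a fit without it, whose counts were 168 higher and 64 lower of 10906, had been seen; with it they were 1046 and 669, and edgeR on recovered reads gave 1112 and 607. On simulated data with 200 changed genes the RNA, footprint and weighted efficiency tests recovered 100%, 70% and 70% of 2-fold changes among 17807, 10906 and 10906 genes, and 7.18%, 4.31% and 11.1% of calls were false. The changed genes were drawn only from better-covered genes, so recovery at low counts is not described. They were also far fewer than the 47.8% called in the RNA data, so the false shares may not carry over.

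Full statistics were given for genes past any of the 3 tests and for the 4 of highest mean CPM, and in each pathway group for up to 4 called genes by p, with IFNAR1, IFNAR2, JAK1, TYK2, RIGI, EIF2AK2 and IFNB1; other genes were named where a count turned on them, and a few genes of these groups are not reported here. Members and lists were chosen with earlier results of these data known. Among RNA libraries, same-numbered replicates correlated at 0.35, 0.44, 0.30 and 0.1001 in their deviations from the arm means, each above the limit of 0.1 for pairing, the last only just. STM2457 replicate 3 correlated more with DMSO replicate 4 (0.49), and STM2457 replicate 4 with DMSO replicate 3 (0.24), so pairing by number is borderline. Replicates 1 and 2 correlated positively across arms in every combination, and so did replicates 3 and 4. Every correlation of replicate 1 or 2 with replicate 3 or 4 was negative, from -0.47 to -0.15. The main RNA fit had no term for this grouping, and its cause was not tested. DESeq2 1.42.0 was an alternative. The fits without a trend, the RNA columns of the table and the edgeR interaction on recovered RNA reads were added after the data had been seen, and so was the choice of ADAR, MAVS, IFIT1, IFIT5, OAS3 and SAMD9 as the genes whose efficiency was followed across alternatives.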

Additional observations from a re-analysis of the deposited data

Results flagged for a closer look

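In the IFIT5 RNA level, STM2457 replicate 4 lay apart from the other 3 STM2457 libraries, at 45.6 CPM against 49.9 to 50.2 CPM, a gap of 0.938 of the range of the arm, above Dixon's 95% limit for 4 samples. It still exceeded every DMSO library. This was 1 of 46 groups of 4 libraries checked, and chance marks about 1 group in 20.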

How the results depend on the processing

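The RNA calls of TRIM25, IFIT1, IFIT5, MAVS and SAMD9 held in all alternatives run. The count of 23 expressed genes was recomputed only with CPM scaled by library totals, where it held. It was not recomputed with the reads of the series table, where IRF9 came to 419% of its deposited counts with STM2457 and 416% with DMSO. Spike-in scaling changed the counts from 6 higher and 4 lower to 3 higher and 7 lower. They were 3 higher and 5 lower when STM2457 replicate 4 was also left out (STAT2 and BST2 lost). The median over all genes was -0.19 and -0.16. This scaling called 12.1% of all genes higher and 47.1% lower, and 13.6% higher and 41.6% lower without that replicate. It turned the sign of ADAR (-0.088, and -0.038 without that library), IFIH1 (-0.052), IRF1 (-0.11 and -0.040), IRF3 (-0.12 and -0.085), IRF7 (-0.14 and -0.14), IFITM2 (-0.097 and -0.075), IFITM3 (-0.11 and -0.090), ISG15 (-0.076) and IFI35 (-0.15 and -0.12). The RNA columns of the series table, an alternative added after the data had been seen, lost the ADAR call (0.03), brought OAS3 past the test (-0.30) and turned IRF1 (-0.062), IRF3 (-0.016), IRF7 (-0.055), IFITM3 (-0.00895), IFI27 (0.10) and IFI35 (-0.086). With replicates 1 and 2 alone IFITM1 lost its call and IRF7 (-0.056), BST2 (0.067) and IFI35 (-0.026) turned. With replicates 3 and 4 alone ADAR, IFI6 and USP18 lost theirs, BST2 gained one and DHX58 turned (0.12). MAVS efficiency turned to 0.16 with edgeR on deposited RNA counts. The cause of these changes was not tested.

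With 1 RNA library left out, 6 to 7 genes were called higher and 2 to 4 lower (2 without DMSO replicate 1, where TBK1 and USP18 were lost). Over all genes these fits called 4346 to 4767 higher and 3431 to 3880 lower, of 18002 to 18066 tested. The RNA value of STAT2 ran from -0.20 to 0.024 and that of OAS3 from -0.069 to 0.026. With 1 footprint library left out, which leaves 1 library in an arm, the footprint value ran from 0.67 to 0.79 for IFIT5. That of MAVS ran from -0.67 to -0.47. Footprint values ran from -0.17 to 0.30 for IFIH1, -0.31 to 0.12 for IRF1, -0.19 to 0.37 for IFITM1, -0.35 to 0.20 for IFITM2, -0.26 to 0.083 for IFITM3, -0.32 to 0.014 for ISG15 and -0.21 to 0.22 for IFI35. With a minimum of 50 reads IFIT5 was again higher and MAVS lower in footprints, and SAMD9 was below this depth. Without the trend of spread with level 0 genes were called higher and 0 lower in footprints. Efficiency called 0 of these genes under every alternative run. The replicate block changed 1 call, that of IRF3 (0.08, edgeR adjusted p = 0.0414), and no other. In footprints, same-numbered libraries correlated at 0.0064, so these share only a number.

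Footprint libraries of 3198063 to 4711513 reads in 2 replicates limited what could be detected. Of simulated 1.5-fold changes, placed only in better-covered genes of the 10906, 52% were recovered. Counts of a few reads, as for IFNB1, OAS1 and SAMD9 footprints, carry wide counting error.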
